A study of Mus musculus with 2 samples.

Results

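The accessibility of 38 nuclear receptor genes was described in muscle of newborn mice, out of 21853 protein-coding genes measured in the same libraries. The genes were listed by name, with no measured value in the rule, and all 38 matched a gene of the GENCODE vM21 annotation by symbol. DNase I, an enzyme that cuts DNA not wrapped in nucleosomes, had been applied to nuclei of the gastrocnemius, the large calf muscle, and the cut sites had been sequenced (DNase-seq). There was 1 group of 2 libraries, labelled biological replicates 1 and 2 and called library 1 and library 2 here. Both came from male B6CASTF1/J mice aged 4 days, the hybrid offspring of C57BL/6J and CAST/EiJ parents, with no treatment or engineered allele given, and each label speaks of 3 males. Both also carry the same donor entry, so the spread between them may be partly technical. With 1 group there was no contrast and nothing was tested: every value below is a level, beside the same measure over all genes. Whole muscle is a mixture of cell types, and open chromatin in a few cells cannot be told apart from weakly open chromatin in many.

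Nuclear receptors are transcription factors, and many of them are switched by small fat-soluble ligands such as retinoic acid, thyroid hormone, vitamin D, steroids and oxysterols. Most bind DNA as pairs at repeats of a short core site, many of them with a retinoid X receptor as the partner, and recruit coactivators or corepressors to their target genes. In skeletal muscle, thyroid hormone receptors are known for setting fibre type and contraction speed, the glucocorticoid receptor for muscle protein breakdown, and the NR4A receptors for their rapid induction by exercise.

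The longer peak list of each library held 94295 peaks in library 1 and 123291 in library 2, with 210189 and 335055 footprints, which are short protected stretches inside open DNA. Peak densities, the authors' signal value for the cuts at a peak, were whole multiples of 1 step per library, 0.00675 in library 1 and 0.00333 in library 2. If 1 step is 1 cut, library 2 was 2.03 times as deep. Depth in reads is unknown, so no counting interval is given. Levels are therefore given mainly as ranks, the percentile of a peak within its own library, with 100 the strongest. Of 10 muscle marker genes such as Myod1, Des and Ckm, 9 had a promoter peak in both libraries, as had 5 of 5 fibroblast, 3 of 4 endothelial, 2 of 4 Schwann cell and 1 of 4 macrophage markers. Of the markers of organs where several receptors are best known, 2 of 6 hepatocyte, 2 of 6 adrenal and gonad, and 1 of 6 neuron and retina genes had one in both.

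A promoter peak, one touching the 500 bp on either side of a protein-coding transcript start, was present in both libraries for 30 of the 38 receptor genes (78.9%), against 64.1% of all protein-coding genes. Library 1 showed one at 30 of the receptor genes and 65.3% of all genes, and library 2 at 34 of the receptor genes and 67.0% of all genes. Nr1i2, Nr1i3, Nr2e3 and Hnf4a had none in either library, and none of the 4 had a promoter base that the authors' lists give a false discovery rate below 0.05. Such bases without a peak, in both libraries, occurred at 0 of the 38 receptor genes and 0.169% of all genes. Across all genes 31.8% had no promoter peak in either library. Nr1h4, Nr2e1, Nr0b1 and Nr0b2 had a peak in library 2 only, and none had one in library 1 only, while 4.17% of all genes had a peak in 1 library only.

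Among genes with a promoter peak in each library, the receptor genes ranked somewhat below all genes. The median mean rank was 86.7 over the 30 receptor genes with a peak in both libraries, against 92.1 over the 14000 such genes. A mean rank of at least 90 was reached by 13 of the 30 receptor genes, against 57.6% of all such genes, and 4 of the 30 lay under 50, against 7.60%. The ranks of the 2 libraries had a median SD of 1.56 over the receptor genes and 1.24 over all genes (n = 2 libraries). Esr2 had the largest SD, 16.7, and Nr2c2 the smallest, 0.0141. All 30 had a higher density in library 1, by a ratio of 1.05 to 2.10, with a median ratio of 1.57 over the receptor genes and 1.52 over all genes.

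**Figure D1:**
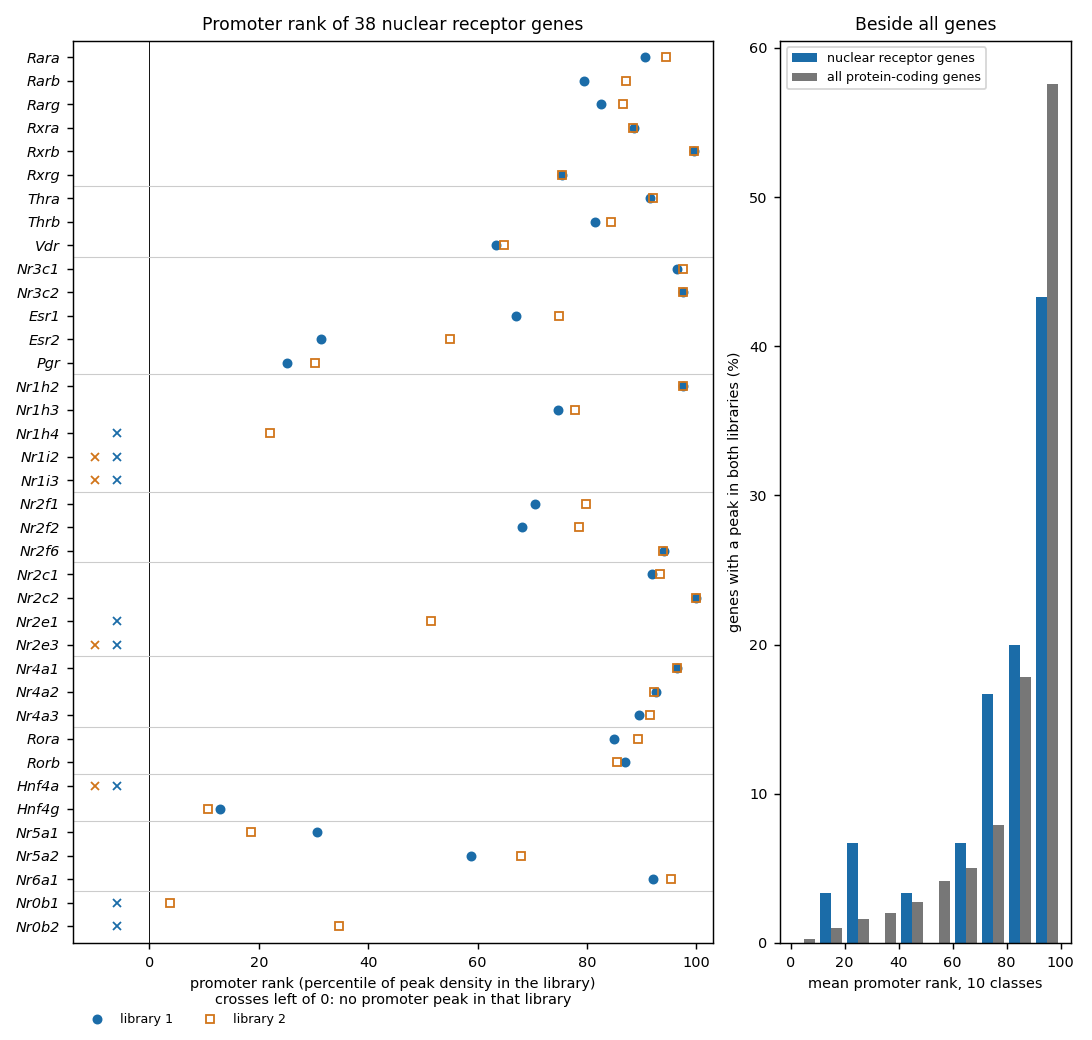
Promoter rank of each of the 38 genes in library 1 (filled circles) and library 2 (open squares), grouped by role between the grey lines, with crosses for libraries without a promoter peak; at right, the share of genes in each class of mean rank for receptor genes (blue) and all genes (grey). The receptor genes hold 43.3% of their values in the top class, against 57.6% for all genes.

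The strongest promoters belonged to receptors of several branches. Nr2c2, which codes for testicular receptor 4, an orphan receptor, had the highest mean rank, 99.9 ± 0.0141 (SD, n = 2 libraries). Rxrb, one of the retinoid X receptors that pair with other receptors, followed at 99.5 ± 0.0613. Nr3c2, the mineralocorticoid receptor, and Nr1h2, the oxysterol receptor LXR beta, both stood at 97.6, with SDs of 0.0578 and 0.0176. Nr3c1, the glucocorticoid receptor, stood at 97.1 ± 0.776, and Nr4a1, the immediate early receptor also called NUR77, at 96.4 ± 0.0538. The order of Nr3c2, Nr1h2 and Nr3c1 did not exceed the spread between libraries. These 6 were the only members with ranks above 95 in both libraries, a level that 20.4% of all genes reached.

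The DNA of 6 strong promoter peaks is shown because it holds motifs that footprints covered in both libraries. Capitals mark such motifs: the GC box GGGCGG, which SP factors bind, CCAAT, which NF-Y binds, and CCGGAAG, which ETS factors bind, each searched on both strands and taken as covered when a footprint held at least 50% of its bases. The sequences are the C57BL/6J reference on build mm10, read 5′ to 3′ on the strand of the gene and limited to bases outside annotated exons, and the CAST/EiJ copy in these mice was not read. Nr2c2 is at chr6:92092181-92092380 (plus strand), Rxrb at chr17:34031683-34031800 (plus), Nr3c2 at chr8:76902001-76902200 (plus), Nr1h2 at chr7:44553952-44554060 (minus), Nr4a1 at chr15:101266621-101266840 (plus) and Nr2f6 at chr8:71381961-71382200 (minus). Nr3c1 also held a covered GC box, and its sequence is not shown here.
Nr2c2: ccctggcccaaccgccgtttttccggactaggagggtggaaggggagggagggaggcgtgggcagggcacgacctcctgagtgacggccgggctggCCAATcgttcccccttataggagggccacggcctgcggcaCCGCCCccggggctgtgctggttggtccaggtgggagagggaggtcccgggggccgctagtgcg
Rxrb: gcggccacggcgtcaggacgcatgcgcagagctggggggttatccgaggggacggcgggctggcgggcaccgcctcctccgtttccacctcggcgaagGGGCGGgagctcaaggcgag
Nr3c2: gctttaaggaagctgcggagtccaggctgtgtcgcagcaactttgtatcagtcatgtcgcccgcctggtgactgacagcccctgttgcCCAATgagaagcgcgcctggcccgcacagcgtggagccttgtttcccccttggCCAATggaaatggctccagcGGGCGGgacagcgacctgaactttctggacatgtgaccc
Nr1h2: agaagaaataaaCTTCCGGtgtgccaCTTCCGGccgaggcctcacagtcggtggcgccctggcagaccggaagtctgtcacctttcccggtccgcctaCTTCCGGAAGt
Nr4a1: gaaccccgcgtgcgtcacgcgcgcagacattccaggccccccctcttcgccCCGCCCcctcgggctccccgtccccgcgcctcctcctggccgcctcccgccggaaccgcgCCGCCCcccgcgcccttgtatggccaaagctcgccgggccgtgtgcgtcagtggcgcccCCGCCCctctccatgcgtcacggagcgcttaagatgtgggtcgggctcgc
Nr2f6: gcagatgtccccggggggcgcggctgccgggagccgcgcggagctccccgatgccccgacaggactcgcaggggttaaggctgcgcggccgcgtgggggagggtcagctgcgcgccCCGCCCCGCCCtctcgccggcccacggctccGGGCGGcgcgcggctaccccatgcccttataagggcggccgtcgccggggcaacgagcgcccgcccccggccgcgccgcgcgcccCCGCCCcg

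In Nr2c2, 1 long footprint at 92092255-92092297 in both libraries covered the CCAAT box, and a second one the GC box. Of 6 ETS motifs in the Nr1h2 peak, 4 lay under 2 footprints of each library, and the covered pair next to its start overlapped on opposite strands. In the peaks shown, Nr4a1 had 3 GC boxes, all covered in both libraries, and Nr2f6 had 6, of which 4 were. Over the 29 receptor genes with a promoter peak that overlapped between the libraries, a GC box was found in 21 of the windows of 300 bp around it (72.4%), against 72.7% of the same windows of 13917 genes. CCAAT was in 20.7% of the receptor windows and 35.8% of all windows, and the ETS motif in 10.3% and 18.5%.

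Footprint numbers were like those of other genes. The strongest promoter peaks of the receptor genes held 122 footprints over 30 peaks in library 1 and 132 over 34 peaks in library 2, with a median of 4.00 per peak in each. The medians over all genes were 4.00 in library 1 and 5.00 in library 2. Esr2, Hnf4g and Nr5a1 had no footprint in library 1, where 2.95% of all genes had none, and every receptor peak had at least 1 in library 2.

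Each of the 6 retinoid receptor genes had an open promoter in either library. Rxrb, described above, had densities of 13.3 in library 1 and 7.50 in library 2, with 7 and 6 footprints, and its strongest peak also touched the promoter of the zinc transporter gene Slc39a7, so it cannot be given to 1 of the genes. Rxra, for retinoid X receptor alpha, had 3.63 and 1.96 (ranks 88.5 and 88.4, 10 and 6 footprints). Rxrg, the retinoid X receptor typical of muscle and brain, had 1.78 and 1.01 (ranks 75.5 and 75.5) at its first 3 starts, and a weaker peak with ranks 56.3 and 62.2 at a start 19925 bp downstream. The 3 retinoid X receptor genes did not overlap in rank.

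The retinoic acid receptor genes were open at some starts and closed at others. Rara had no peak at its most upstream start. It had densities of 4.28 in library 1 and 3.45 in library 2 (ranks 90.6 and 94.5, 4 and 6 footprints) at a pair of starts 9880 and 9900 bp downstream, and 4.17 and 2.33 (ranks 90.2 and 90.6) at a start 32594 bp downstream. Rarg was open in both libraries at 4 of 5 starts, most strongly 11017 bp downstream of the first, where densities were 2.48 and 1.72 (ranks 82.5 and 86.5, 2 and 2 footprints), and was closed 7171 bp downstream. Rxra was likewise closed in both libraries at its last 2 starts, 32852 and 34143 bp downstream.

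Rarb, on chromosome 14, was closed upstream and open far downstream. Its 2 upstream starts had no peak in either library, and only library 1 listed bases below the false discovery limit there, with a lowest value of 0.0418. At the 2 starts 243329 and 243613 bp downstream the same peak, chr14:16575521-16575760, had densities of 2.11 in library 1 and 1.81 in library 2 (ranks 79.4 and 87.2), with 6 and 4 footprints. The downstream promoter is known for a retinoic acid response element, through which the receptor responds to its own ligand. A direct repeat of the core site with 5 bases between lay 14 to 30 bases downstream of the last start, at chr14:16575513-16575529, across the edge of the peak, with 9 of its 17 bases inside. A footprint overlapped it in each library, over 12 bases (16575518-16575532) in library 1 and over 8 bases (16575521-16575528) in library 2. It is shown with 6 bases on either side (chr14:16575507-16575535, minus strand), with the repeated sites in capitals.
Rarb: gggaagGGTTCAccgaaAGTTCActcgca
The repeat was searched for with G or A in the first place and G or T in the third place of each copy. It was in 1 of 29 windows of 300 bp around the receptor genes' peaks and in 5 of 13917 windows of all genes (0.0359%), and this site was picked with that match known. The match is a description of the letters and does not show which factor was bound.

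Thra, which codes for the main thyroid hormone receptor of muscle, had densities of 4.62 in library 1 and 2.67 in library 2 (ranks 91.5 and 92.0, 3 and 5 footprints) at its first 3 starts, and no peak at a start 11775 bp downstream. Thrb, the second thyroid hormone receptor gene, was open at 3 starts within 635 bp, with densities of 2.35 and 1.51 (ranks 81.5 and 84.3, 3 and 2 footprints). Its 2 starts 302560 and 321268 bp downstream had no peak in either library. Vdr, the vitamin D receptor gene, was open at 1 of 4 starts, 2320 bp downstream of the first, with densities of 1.20 and 0.716 (ranks 63.4 and 64.8) and 4 footprints in each library. The Vdr peak was thus the weakest of the 3, with no overlap in rank with Thrb or Thra.

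The 5 steroid receptor genes were all open in each library, Nr3c1 and Nr3c2 with ranks above 96 and the sex steroid receptors below 75. Nr3c2 had densities of 9.01 in library 1 and 5.14 in library 2 (ranks 97.6 and 97.5, 5 and 4 footprints), at starts 2846 to 3034 bp downstream of the first. Its last start, 8830 bp downstream, had no peak. Nr3c1, on chromosome 18, was open at 8 of 9 starts and closed at the most upstream one. Its strongest peak, with densities of 7.91 and 5.22 (ranks 96.5 and 97.6, 4 and 2 footprints), lay in an intron beside starts 28120 and 28122 bp downstream. Among the strongest promoter peaks of the 29 genes, it alone held the receptors' core site AGGTCA under footprints of both libraries. That is 1 of 29 peaks (3.45%), against 0.927% of the promoter peaks of all genes. This core site is not shared by every nuclear receptor. The site of the glucocorticoid receptor, which Nr3c1 codes for, has other letters. The match is therefore not to the glucocorticoid receptor's own site.

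The sex steroid receptor genes, Esr1, Esr2 and Pgr, were weaker. Esr1, for estrogen receptor alpha, had ranks of 26.2 and 51.4 at its first start and 67.1 and 74.8 at a start 98166 bp downstream. Esr2, for estrogen receptor beta, had densities of 0.594 and 0.566 (ranks 31.3 and 55.0) at its first start, no footprint in library 1 and 2 in library 2, and no peak 9544 bp downstream. Pgr, the progesterone receptor gene, had densities of 0.520 and 0.357 (ranks 25.1 and 30.2, 1 and 4 footprints), and its strongest peaks in the libraries did not overlap. At its most upstream start library 2 alone had a peak. Both libraries listed bases below the false discovery limit there, with lowest values of 0.00176 in library 1 and 0.00268 in library 2. Esr2 had no peak in library 1 with the shorter list or with the upper 50% of each list by density, and Pgr had none in either library with the upper 50%.

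Of the oxysterol, bile acid and xenobiotic receptor genes, those for the oxysterol receptors were open and the others were not, or only in library 2. Nr1h2 had densities of 8.94 in library 1 and 5.18 in library 2 (ranks 97.5 and 97.6, 3 and 4 footprints) and was open at 8 of 9 starts, the exception lying 1704 bp downstream. Nr1h3, for LXR alpha, had 1.73 and 1.10 (ranks 74.7 and 77.8). Nr1h4, for the bile acid receptor FXR, had no peak in library 1 and a density of 0.303 in library 2 (rank 22.0, 1 footprint), 477 bp from its first start. Library 1 did list bases below the false discovery limit at that start, with a lowest value of 0.0262, against 0.0151 in library 2. Nr1i2 and Nr1i3, for the xenobiotic receptors PXR and CAR of liver and gut, had no peak at any of their 1 and 4 starts.

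The COUP-TF genes, whose products are orphan receptors of mesenchymal and neural development, were open in both libraries. Nr2f6 led with densities of 5.97 in library 1 and 3.21 in library 2 (ranks 94.0 and 93.8, 9 and 8 footprints). Nr2f1 had 1.49 and 1.20 (ranks 70.5 and 79.8, 8 and 2 footprints) at its first start. A start 1827 bp downstream had ranks of 49.5 and 50.2, the next was open in library 1 only, and the last 2 of its 5 starts had no peak. Nr2f2 had no peak at its most upstream start and densities of 1.38 and 1.14 (ranks 68.1 and 78.6, 3 and 5 footprints) beside a start 6142 bp downstream. With promoters reduced to 200 bp on either side, Nr2f2 had no peak in library 1.

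Among the testicular receptor, TLX and PNR genes, Nr2c2 had densities of 16.8 in library 1 and 9.81 in library 2 (6 and 5 footprints) at its second start, 1043 bp downstream of the first, and no peak at its last start, 46625 bp downstream. Nr2c1, for testicular receptor 2, had 4.82 and 3.06 (ranks 91.9 and 93.4, 5 and 2 footprints) and was closed at its last start, 8263 bp downstream. Nr2e1, for TLX, a receptor of neural stem cells, had a peak in library 2 only, with a density of 0.526 (rank 51.4, 3 footprints), and this peak also touched the promoter of Ostm1. Nr2e3, for a receptor of photoreceptors, had none.

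The 3 NR4A genes, immediate early receptors without a classical ligand, had mean ranks of 96.4 (Nr4a1), 92.4 (Nr4a2) and 90.4 (Nr4a3). Nr4a1 had densities of 7.79 in library 1 and 4.46 in library 2 (ranks 96.4 and 96.5, 3 and 3 footprints) at its second start, 12577 bp downstream, and 2.58 and 1.55 (ranks 83.2 and 84.7) at its first. Nr4a2 had 5.18 and 2.74 (ranks 92.6 and 92.2, 4 and 6 footprints) at its first start, a weaker peak with ranks 74.7 and 72.3 at a start 8965 bp downstream, and none at 10931 bp. Nr4a3 had 3.90 and 2.53 (ranks 89.4 and 91.5, 5 and 3 footprints) at its first start, and a start 3961 bp downstream was open in library 2 only. Their ranks did not overlap between the genes. With promoters of 200 bp on either side, the mean rank of Nr4a3 was 79.2 in place of 90.4.

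Rora and Rorb, for the retinoid-related orphan receptors, had mean ranks of 87.2 ± 3.03 and 86.2 ± 1.07 (SD, n = 2 libraries), which do not differ beyond that spread. Rora was open at both of its starts, which lie 635896 bp apart, with densities of 1.99 in library 1 and 1.16 in library 2 at the first and 2.87 and 2.11 at the second (ranks 85.0 and 89.3, 5 and 4 footprints). Rorb was open at its first start only, with densities of 3.25 and 1.62 (3 and 6 footprints), and closed 110079 bp downstream. Hnf4a, for a receptor that specifies liver, was closed at all 4 starts. Hnf4g had 0.371 and 0.217 (ranks 13.0 and 10.7, 0 and 2 footprints) at its first start, and no peak 126120 bp downstream. Its strongest peaks in the libraries did not overlap, but the library 1 peak overlapped the weaker of 2 library 2 peaks at the first start. With the shorter list Hnf4g had none in either library.

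Of the last branches, Nr6a1, for germ cell nuclear factor, was the strongest, with densities of 4.86 in library 1 and 3.89 in library 2 (ranks 92.0 and 95.4, 3 and 6 footprints) beside starts 1413 and 1471 bp downstream of the first, and no peak at its last 2 starts, 143168 and 143173 bp downstream. Among the strongest promoter peaks of these genes, its peak alone held the cyclic AMP response element TGACGTCA, at chr2:38926419-38926426, under a footprint in both libraries. It is shown with 10 bases on either side (chr2:38926409-38926436, minus strand), the element in capitals.
Nr6a1: cagcggcgcgTGACGTCAgaggagggag
The same element was in 3.45% of the receptor windows of 300 bp and in 3.68% of all windows. Nr5a2, for LRH-1, had densities of 1.07 and 0.783 (ranks 58.8 and 68.0, 5 and 9 footprints) near starts 10886 and 11275 bp downstream, and no peak at its first 2 starts. Nr5a1, for SF-1, the regulator of adrenal and gonad development, had 0.587 and 0.280 (ranks 30.7 and 18.6, 0 and 2 footprints) near a start 2308 bp downstream, in peaks that did not overlap, and its first start was open in library 2 only. With the shorter list Nr5a1 had no peak in library 1. Nr0b1, for DAX1, had a peak in library 2 only, with a density of 0.140 (rank 3.84, 1 footprint). Nr0b2, for SHP, likewise had 0.387 there (rank 34.7, 2 footprints). Nr0b1 lies on chromosome X, of which males carry a single copy. None of the 4 genes with a peak in library 2 only had a peak in library 1 with any promoter width or peak list tried. Library 2 held more peaks than library 1. With library 2 cut by density to the peak number of library 1, Nr1h4 and Nr0b1 had no peak there either. With the shorter list, Nr1h4, Nr0b1 and Nr0b2 had none in library 2. The part of sequencing depth in these calls was not tested.

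Partly open sets of starts were common among these genes. Of 38 receptor genes, 23 (60.5%) had starts with and starts without a peak in both libraries, against 21.9% of all genes. Receptor genes have more annotated starts, with a median of 3.00 against 2.00 over all genes. Within genes with 2 to 3 starts, 10 of 16 receptor genes were partly open, against 22.7% of all such genes. Within genes with 4 to 5 starts, 10 of 15 were, against 53.3%, and with 6 or more starts 3 of 3, against 76.5%. The receptor share lay above that of all genes in each class, with few genes behind each.

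At 8 receptor genes a start was open in both libraries while the most upstream one was not: Rara, Rarb, Vdr, Nr3c1, Pgr, Nr2f2, Nr5a1 and Nr5a2. That is 21.1% of the receptor genes, against 4.08% of all genes. Only genes with several starts can qualify, which 34 of 38 receptor genes and 13617 of 21853 genes have. These shares were not split by number of starts. With the most upstream start alone as the promoter, 22 receptor genes had a peak in both libraries in place of 30. Taken start by start, 83 of 134 receptor starts (61.9%) had a peak in both libraries, against 58.2% of the 54361 starts of all genes. A further 41 had none in either library, 8 one in library 2 only and 2 one in library 1 only. Neighbouring starts can share 1 peak, so the starts are not independent of each other.

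**Figure D2:**
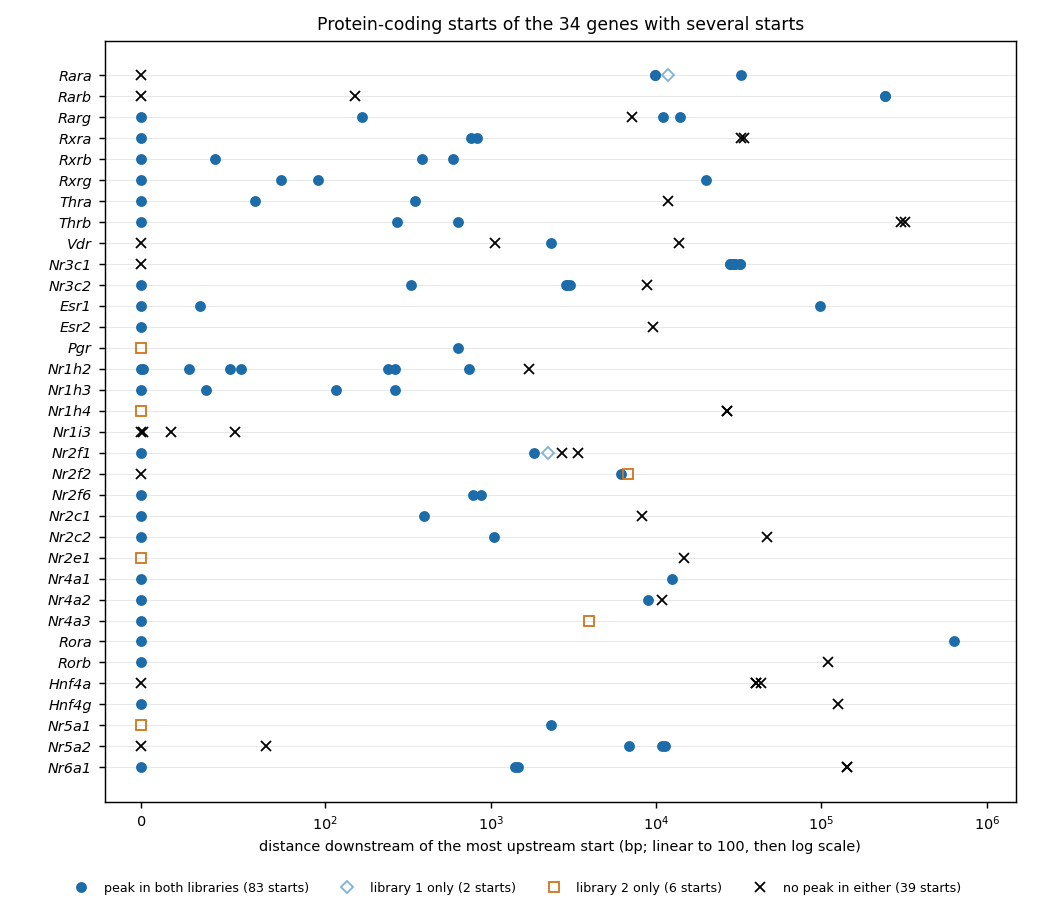
Each protein-coding start of the 34 receptor genes with several starts, by its distance downstream of the most upstream one (bp, linear to 100 and then log scale); filled circles mark a peak in both libraries, open symbols a peak in 1 library and crosses no peak. Rara, Rarb, Vdr, Nr3c1, Nr2f2 and Nr5a2 have a cross at 0 and filled circles further downstream.

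Open and closed starts of the receptor genes lay at different CpG contents. The ratio of observed to expected CpG in the 1001 bases around a start had a median of 0.699 at the 83 open starts, with a range of 0.270 to 1.01, and 0.227 at the 41 closed ones, with a range of 0.0905 to 0.505. Over all genes the medians were 0.727 at open and 0.197 at closed starts. By classes of the ratio, 0 of 15 receptor starts under 0.2 were open, 10 of 37 from 0.2 to 0.4 (27.0%), 18 of 25 from 0.4 to 0.6 (72.0%), 36 of 38 from 0.6 to 0.8 (94.7%) and 19 of 19 above. Starts that share a peak were counted separately, and 4 of the 10 open ones from 0.2 to 0.4 were Nr1h3 starts within 266 bp on 1 peak. The shares over all genes in the same classes were 5.37%, 21.5%, 72.8%, 94.9% and 98.2%. The receptor starts thus followed the shares of all starts closely in the upper classes. Rarb, for example, had a ratio of 0.0986 at its second closed start and 0.596 and 0.779 at its open ones. Nr2e1, at 0.700, and 1 start of Nr2f2, at 0.731, were the exceptions above 0.6, each with a peak in library 2 only.

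**Figure D3:**
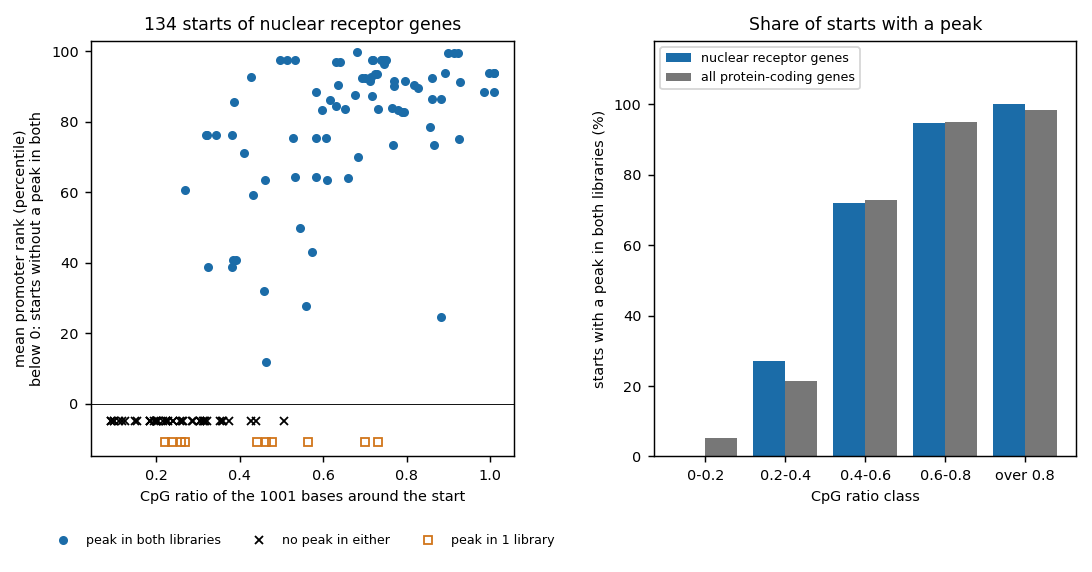
Left, mean promoter rank of each of the 134 receptor starts against the CpG ratio of the surrounding 1001 bases, with starts lacking a peak in both libraries below 0; right, the share of starts with a peak in both libraries by class of the ratio for receptor genes (blue) and all genes (grey). Starts without a peak in either library (crosses) reach a ratio of at most 0.505, and starts with a peak in 1 library are open squares.

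Distal peaks, those with their centre over 1 kb from every annotated start, were counted within 50 kb of the most upstream start where both libraries had an overlapping peak. There were 135 near the receptor genes, with a median of 2.00 per gene and a mean of 3.55, against 2.00 and 2.53 over all genes. Rara had 23 and Thra 20, the only receptor genes with 10 or more, a number that 2.60% of all genes reached. Nr1h4, Nr2e1, Rorb, Hnf4g and Nr0b1 had none, as had 26.7% of all genes. For 84 of the 135 peaks the nearest coding start was that of a receptor gene, and 68 lay in introns. The median mean rank was 72.3 near the receptor genes and 61.3 over the 26153 distal peaks near any gene. A mean rank of at least 90 was held by 16 of the 135 (11.9%), against 5.13% near any gene. Without Rara and Thra, the count near the receptor genes was 92, the median 67.9 and the share 8.70%.

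**Figure D4:**
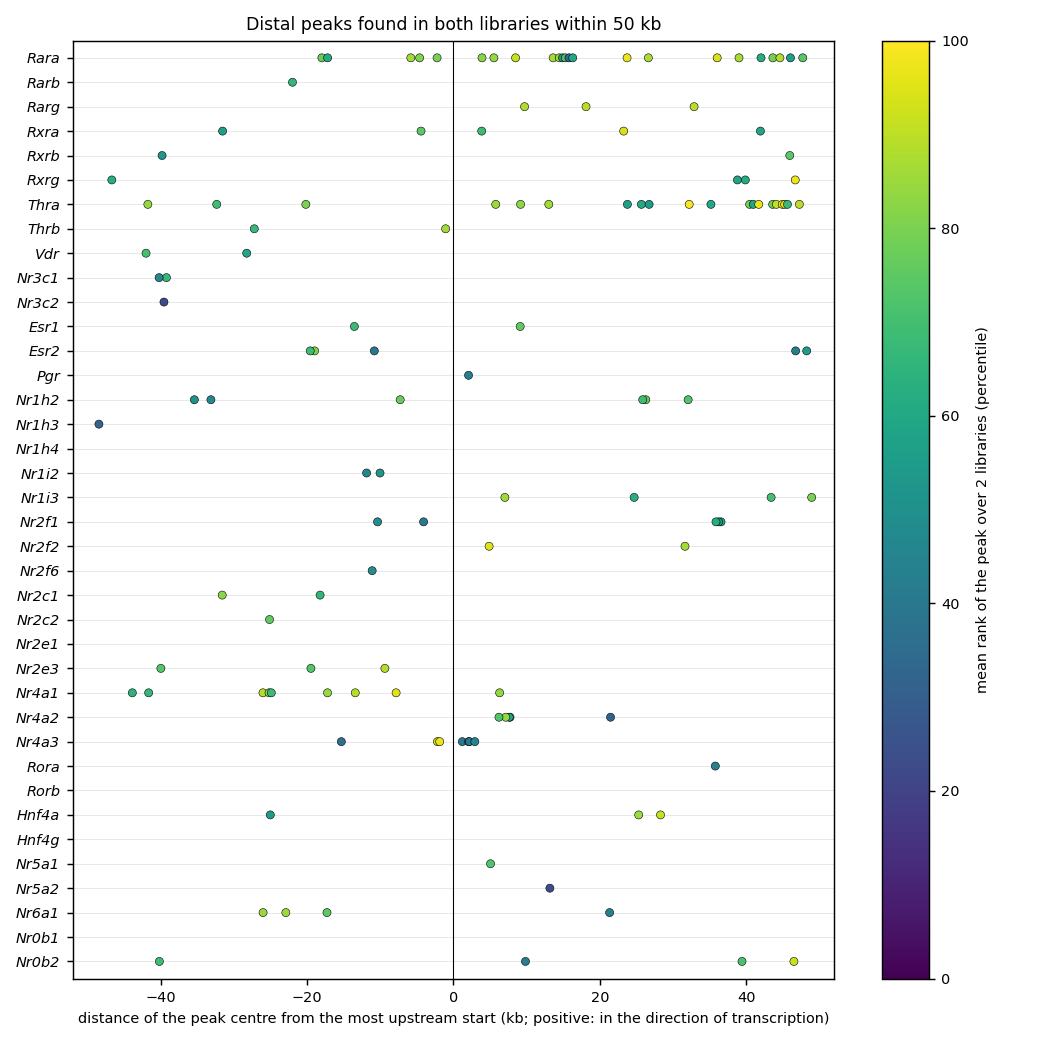
Distal peaks found in both libraries, by the distance of the peak centre from the most upstream start of each receptor gene (kb), coloured by mean rank. Rara and Thra stand out with 23 and 20 peaks, and 5 genes have none.

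At Rara, 16 of the 23 peaks lay in its own introns and 18 were nearer to its starts than to those of any other coding gene. The strongest, chr11:98951441-98951640, lay 23722 bp downstream of the most upstream start, with densities of 8.38 in library 1 and 5.03 in library 2 (ranks 97.0 and 97.4). It exceeded the gene's own promoter peaks in rank in both libraries. At Thra, 3 of the 20 peaks were nearest to a start of Thra. The strongest, chr11:98773861-98774180, had densities of 11.6 and 7.32 (ranks 99.1 and 99.4) and lay 32209 bp downstream, in an intron of Nr1d1, which codes for the clock receptor REV-ERB alpha and overlaps the end of Thra on the opposite strand. A group of peaks 41709 to 47259 bp from the Thra start, beyond Nr1d1, held 3 with mean ranks of 96.8, 97.2 and 96.0. Proximity does not show which of these genes a peak acts on.

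Distal peaks near other receptor genes ranged widely in rank. Among retinoid receptors, Rxrg had one 46696 bp downstream, past its end (densities 8.29 in library 1 and 4.29 in library 2, mean rank 96.6), which outranked its promoter. Rxra had one in an intron at 23260 bp (mean rank 93.7) and Rarg one in a coding exon at 18117 bp (89.5). The best peaks of Rarb (65.3) and Rxrb (74.6) were weaker. Nr4a3 had one at -1873 bp, upstream of its start (densities 7.78 and 4.93, ranks 96.4 and 97.2), above its promoter ranks of 89.4 and 91.5. Nr4a1 had one at -7829 bp (6.37 and 3.80, ranks 94.7 and 95.2). It ranked above the peak at the first start of Nr4a1 but below the gene's strongest promoter peak (ranks 96.4 and 96.5). Nr4a2 had one in an intron at 7153 bp (mean rank 84.1). Nr2f2 had an intronic peak at 4875 bp (7.20 and 3.64, 95.3), above its promoter rank of 73.4.

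Distal peaks also lay near genes without a promoter peak in 1 or both libraries. Hnf4a, closed at all starts, had an intronic peak 28292 bp downstream with densities of 4.28 in library 1 and 2.65 in library 2 (mean rank 91.2). Nr2e3 had one at -9363 bp from its coding start with 3.31 and 2.27 (88.7), in an intron of the same gene. Nr1i3 had one at 7030 bp (85.6), in an intron of Tomm40l, and Nr0b2 one at 46514 bp (91.7), nearest to Sfn. Nr1i2 reached only 52.5. Within 50 kb of the most upstream start, the best peaks of the steroid receptor genes were those of Esr2 at -18961 bp (81.1), Esr1 (75.4), Nr3c1 (67.0), Pgr (42.6) and Nr3c2 (22.4). The best peaks of the remaining genes were 86.2 for Thrb, 85.1 for Nr6a1, 82.3 for Nr2c1, 76.7 for Nr1h2, 75.7 for Nr2c2, 72.5 for Nr5a1, 70.0 for Vdr, 61.4 for Nr2f1, 48.9 for Nr2f6, 43.0 for Rora, 31.8 for Nr1h3 and 23.3 for Nr5a2. Counted from any protein-coding start, the best peak was 89.3 for Vdr, 88.1 for Nr3c1, 82.5 for Rora and 66.8 for Nr1h4.

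The 3 strongest distal peaks with a searched motif under footprints of both libraries are shown. Those at Thra and Nr4a3 held covered GC boxes. The one at Rara held the E-box CAGCTG, the form preferred by myogenic factors such as MYOD1. The peaks were picked for a covered motif, which does not show which factor was bound. Capitals mark the motifs, on the plus strand of mm10. The stretches are chr11:98773861-98774160 for Thra, chr11:98951441-98951640 for Rara and chr4:48043321-48043420 for Nr4a3.
Thra distal: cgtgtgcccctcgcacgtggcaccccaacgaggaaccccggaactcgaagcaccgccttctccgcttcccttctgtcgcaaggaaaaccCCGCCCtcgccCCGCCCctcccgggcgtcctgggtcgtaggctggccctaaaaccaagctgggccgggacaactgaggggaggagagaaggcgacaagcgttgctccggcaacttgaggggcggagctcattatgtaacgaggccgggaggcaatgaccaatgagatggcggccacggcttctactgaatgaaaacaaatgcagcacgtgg
Rara distal: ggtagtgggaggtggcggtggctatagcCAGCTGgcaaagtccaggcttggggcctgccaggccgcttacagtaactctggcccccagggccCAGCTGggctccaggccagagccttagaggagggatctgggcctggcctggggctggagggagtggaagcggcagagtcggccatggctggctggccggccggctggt
Nr4a3 distal: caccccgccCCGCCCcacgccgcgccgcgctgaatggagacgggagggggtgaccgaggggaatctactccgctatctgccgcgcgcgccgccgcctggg

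At Rara, footprints at 98951462-98951495 in library 1 and 98951461-98951505 in library 2 covered the first E-box, and a second pair at 98951521-98951559 and 98951522-98951556 the other. Within the peak, 33 of the 135 distal peaks near receptor genes (24.4%) held an E-box, against 25.4% of all 45755 shared distal peaks, and 11 (8.15%) held one under footprints of both libraries, against 4.72%. In windows of 300 bp the E-box was in 35.6% near receptor genes and 35.2% of all, and the GC box in 25.9% against 14.5%. The peaks near receptor genes were also stronger, with a median mean rank of 72.3 against 56.0 over all shared distal peaks. Their stretches shared by both libraries were longer, with a median of 171 bp against 160 bp. The part of these differences in the motif shares was not tested. In promoter windows the E-box was in 8 of 29 (27.6%), against 17.8% of all genes. Under footprints of both libraries it was in 0 of the 29 promoter peaks, against 1.95% of those of all genes.

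Few copies of the receptors' own sites were found. The longer receptor sites below contain the core site AGGTCA, except the palindrome of the glucocorticoid receptor, which has other letters. AGGTCA was in 3 of 29 promoter windows (10.3%), against 9.34% of all genes. It was in 15.6% of the distal windows near receptor genes, against 17.9% of all. Exact direct repeats of AGGTCA with 0 to 5 bases between, inverted repeats with 0 or 1, and everted repeats with 6 or 8 were in none of the 29 promoter or 135 distal windows. Nor was the palindrome of the glucocorticoid receptor. Such repeats were rare over all peaks too, the most frequent, with 1 base between, being in 0.0284% of all distal windows. Their absence says only that these exact letters are not in these windows. The extended site AAAGGTCA of the NR4A receptors was in 1 distal window near receptor genes (0.741%), against 1.31% of all. MEF2 motifs, bound by a family of muscle factors, were in the promoter windows of 2 of 29 receptor genes (6.90%), against 0.560% of all. Inside the peak they were in 1 of 29 (3.45%), against 0.366%. Under footprints of both libraries they were in 0, against 0.0575%.

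The partners of the receptors were described beside them. The 10 nuclear receptor genes outside the list of 38 were all open in each library, led by Esrra (mean rank 99.9 ± 0.00305) and Ppard (99.5 ± 0.421; SD, n = 2 libraries each). So had 14 of 14 coactivator genes, led by Carm1 (99.8) and Ncoa2 (99.7), 10 of 10 corepressor genes, led by Sin3a (98.6) and Hdac3 (97.7), and 8 of 8 genes for chaperones of steroid receptors, led by Hspa8 (99.9) and Hsp90ab1 (99.5). The median mean ranks were 81.9 for the other receptors, 94.8 for coactivators, 92.1 for corepressors and 99.1 for chaperones. The receptor genes' median of 86.7 lay between these values.

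Genes that make, carry or break down the ligands were open at shares near or below the 64.1% of all genes. Of 14 retinoid genes 9 were open in each library (64.3%), led by Rdh10 (90.8), which makes retinal, and Dhrs3 (89.6), which reverses that step. Crabp2 and Cyp26c1 had none. Of 8 thyroid hormone genes 3 were (37.5%), led by the transporter gene Slc16a10 (95.7), while Crym, Dio1 and Slco1c1 had none. Of 10 steroid and vitamin D genes 6 were (60.0%), led by Srd5a1 (98.7) and Cyp2r1 (91.9), while Cyp11a1, Cyp17a1 and Cyp19a1 had none.

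Known targets of the receptors are set beside the same 64.1% of all genes. All 14 glucocorticoid targets were open in both libraries, led by Ddit4 (99.5) and Sgk1 (99.2). Of 9 targets of the oxysterol receptors 7 were open (77.8%), led by Mylip (99.0) and Lpcat3 (97.2), and Abcg5 was closed. Of 8 thyroid hormone targets 5 were (62.5%), near the share of all genes, led by Slc2a4 (96.9) and Klf9 (93.2), and Dio1 and Myh7 were closed. Of 8 liver targets of the bile acid and xenobiotic receptors 0 were open in either library, Abcb11, Cyp2b10 and Cyp3a11 among the closed ones. An open promoter does not show that a receptor was active there.

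**Figure D5:**
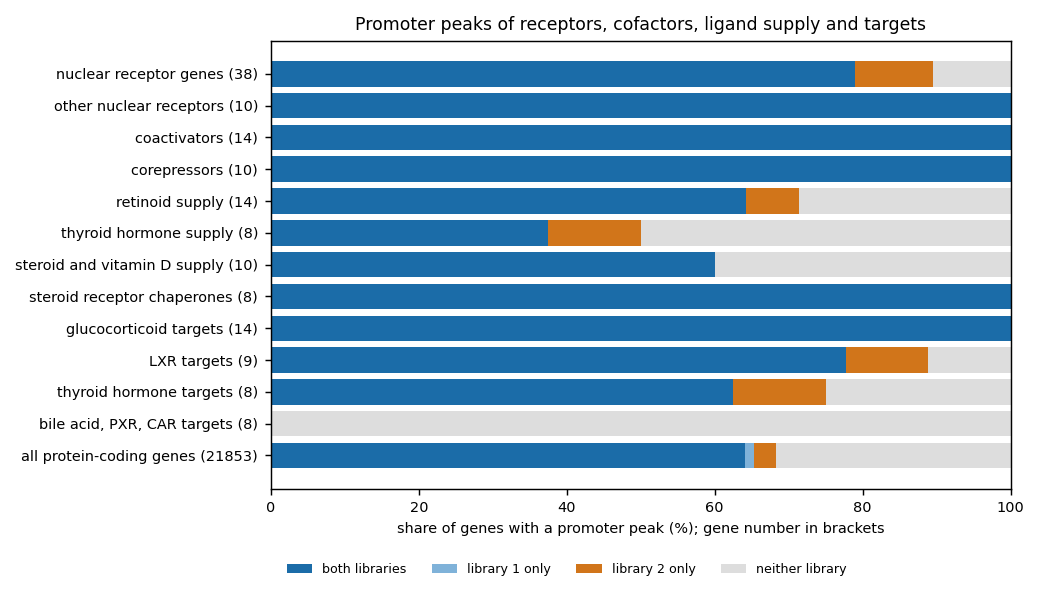
Share of genes with a promoter peak in both libraries, in 1 library or in neither (%), for the 38 receptor genes, 11 lists of related genes and all protein-coding genes, with the number of genes in brackets. The bile acid, PXR and CAR targets have no open promoter, and 5 lists are fully open.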

How the data were processed

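Each library came with the authors' lists of peaks, footprints and false discovery rates, on build mm10 per the labels. The deposited peak lists carry a density (signal) per peak, the deposited footprint lists a constant score of 0.01 in every entry, and the deposited rate lists a q-value per stretch of bases, all below 0.05. Each list belongs to 1 library, and no source used here names the aligner or the callers. The longer peak list of each library was used.

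Starts came from GENCODE vM21 and sequence from the GRCm38.p6 reference. Promoter peaks touched a window reaching 500 bp to each side of a protein-coding start, and the strongest one per gene gave the rank, the percentile of density within the library. Peaks sharing at least 1 bp were shared, and distal peaks had their centre over 1 kb from every annotated start. A footprint counted where it touched the peak. Reads per library are not given, so the precision of a density is unknown. Motifs were searched on both strands, in 300 bp around the peak centre and inside the stretch shared by both libraries. No test was run, since there was 1 group of 2 libraries. Scripts in Python 3.11.15 with pandas 2.3.3 and NumPy 2.4.6 were tested on simulated intervals.

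All 38 genes are described by role. Full values are given for the member with the highest rank of each role group, for those with a peak in 1 library only or at some starts only, and, for related lists, for the 2 highest and up to 3 without a peak in alphabetical order, except that 2 genes this rule names are not reported here. The members, the lists and the rule were chosen with earlier results of these data known, and the response element of Rarb and the element of Nr6a1 were picked after their values were seen. Other promoter widths, lists, starts and overlaps were tried, and each library was left out in turn.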

Additional observations from a re-analysis of the deposited data

How the results depend on the processing

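The count of 30 receptor genes with a promoter peak in both libraries stayed within 1.5 times under the 8 other settings tried, from 22 with the most upstream start alone to 30, and was 30 to 34 with either library left out. The count without any peak was 4, and became 8 with the shorter list, 10 with only the upper 50% of each list by density, 10 with the most upstream start alone, and 4 to 8 with 1 library left out, 8 being the count without library 2. The median mean rank of 86.7 became 82.0 with the shorter list and 84.8 with the most upstream start alone, and was 86.0 to 87.8 with 1 library left out. The 135 shared distal peaks became 68 within 25 kb and 85 with the shorter list, and 168 to 246 with 1 library left out, since a single library needs no overlap. The cause of the other shifts was not tested. Starting from any protein-coding start gave 160, and leaving out Rara and Thra, an alternative chosen after seeing the data, 92. Counts of starts were 85 to 91 in place of 83, footprint sums 122 to 132 in place of 127, promoter peaks with a GC box 20 in place of 19, and open genes of the related lists 84 to 88 in place of 84, with 1 library left out. Of 30 member ranks, 26 moved beyond the spread between libraries with the shorter list, 3 with 200 bp and 8 with the most upstream start. With the shorter list all 26 fell, and 4 other members had no rank, so the median of 82.0 leaves them out. A rank is a percentile within the list used, so ranks in lists of unlike length are not on the same scale. No paired analysis was possible because there is 1 group. Depth in reads is unknown, so a missing peak in library 1 means not detected there, and CAST/EiJ bases were not read.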

Other observations

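Inside the gene bodies, Rora held 31 shared distal peaks over its 734461 bp, or 4.22 per 100 kb, although only 1 lay within 50 kb of its most upstream start. The strongest of them, 438494 bp downstream of that start, had densities of 4.02 in library 1 and 2.80 in library 2 (mean rank 91.1), above the promoter rank of Rora. Esr1 held 10 such peaks over 394022 bp, the strongest 163761 bp downstream with a mean rank of 81.5, and Rarb held 6 over 388318 bp, the strongest with densities of 0.932 in library 1 and 0.650 in library 2. Rorb, Nr2e1 and Hnf4g held none, nor did Rxrb, Vdr, Nr1h2, Nr1h3, Nr1i2, Nr1i3, Nr2f1, Nr2f6, Nr2c1, Nr2c2, Nr0b1 and Nr0b2. Rara, with 17 peaks over 47125 bp, had 36.1 per 100 kb, Nr4a2 had 23.3 and Thra 21.1. Peaks inside gene bodies were not counted over all genes.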
